A study of Mus musculus with 463 samples.

Results

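Insulin-producing cells sorted from the dorsal and the ventral pancreas of mouse embryos at E17.5, late in gestation, were compared by bulk RNA-seq. The comparison rests on 4 libraries, 2 dorsal and 2 ventral, of 463 samples in the series (16 bulk libraries and 447 single cells), and these were taken by their labels, not by any measured value. All 4 came from embryos that carried an Insulin-RFP transgene, a red fluorescent reporter of insulin expression, and the cells were sorted as Ins1-RFP+. The labels give no strain, other allele, treatment or culture for these groups. Earlier bulk libraries set beside them came from Pdx1-GFP embryos at E10.5 (sorted Pdx1+) and Ngn3-GFP embryos at E14.5 (sorted Ngn3-H or Ngn3-L), 2 for each side. Each library was made from poly(A) RNA of many sorted cells, so it averages over many cells, and how many embryos were pooled is not given. The libraries of a side are numbered 1 and 2, and the labels do not say whether the number marks a litter, a sort or a sequencing run. In models without a term for the library number, the p-values measure the spread between libraries of a group, which may be technical. In models with that term, the difference between numbers that the groups of a stage share is taken out, and only the remaining spread is measured. Each gene's spread was estimated over all 16 bulk libraries and not from these 4 alone. The dorsal libraries held 13484729 and 10543965 reads on genes and the ventral libraries 14116988 and 11383254, and 19004 to 19769 genes had at least 1 read.

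The mouse pancreas forms from a dorsal and a ventral bud of the foregut, which see different neighbouring tissues and later fuse. Both give rise to endocrine cells. Beta cells make insulin and amylin, alpha cells glucagon, delta cells somatostatin, and PP cells pancreatic polypeptide. Late in gestation beta cells multiply and begin to take on the transcription factors and glucose-sensing genes of the mature cell, while the adult islets of the part derived from the ventral bud are known to be rich in PP cells and poor in alpha cells. The comparison asks which side-specific expression is left once cells of both sides make insulin.

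Insulin transcripts led the hormones on both sides, as the sort label asks. The insulin genes Ins1 and Ins2, close copies whose shared reads the counting could have split or dropped, together made up 6.26% and 6.95% of reads on genes in the dorsal libraries and 6.55% and 7.19% in the ventral ones. Levels are given as CPM, counts scaled by TMM and by the total of reads on tested genes, except where a level per gene length (RPKM) is named. Per length, Ins2 stood at 69119.7 to 78101 RPKM and Ins1 at 21993 to 25989 RPKM, against 7932 to 8682 RPKM for Iapp, which encodes amylin, 655 to 1928 RPKM for somatostatin (Sst) and 126 to 842 RPKM for glucagon (Gcg). RNA of other cell types was present. The 23 tested acinar enzyme and regulator genes summed to 5822 and 5523 CPM in the dorsal and 5315 and 5192 CPM in the ventral libraries, the 15 mesenchyme genes to 2552 and 1155 CPM in the dorsal and 3541 and 1536 CPM in the ventral libraries, the 12 endothelial genes to 137 and 60.5 CPM in the dorsal and 160.0 and 58.0 CPM in the ventral libraries and the 12 immune genes to 280.0 and 110.0 CPM in the dorsal and 356 and 142 CPM in the ventral libraries. None of the defining markers Col1a1, Pecam1, Ptprc or Ctrb1 was at 0 in any of the 4 libraries. Ctrb1, which encodes a chymotrypsinogen, was at 1814 and 1849.9 CPM in the dorsal and 1665 and 1670.2 CPM in the ventral libraries.

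The libraries stood apart by number more than by side. Over 10088 genes with a mean of 10 CPM or more, the root mean square log2 difference was 0.166 between dorsal and ventral library 1 and 0.171 between dorsal and ventral library 2. It was 0.290 between the dorsal and 0.311 between the ventral libraries. Among these genes, 74 (0.734%) were over 1.5-fold higher in both libraries 2 than in both libraries 1, and 171 (1.7%) were over 1.5-fold higher in both libraries 1. By side the same counts were 2 genes (0.0198%) higher in the ventral pair, Gip and Myh11, and 6 genes (0.0595%) higher in the dorsal pair, Sim1, Gcg, Peg10, Wnk3, Tlcd1 and 2210010C04Rik. Each comparison of the sides is therefore given without and with a term for the library number in the model, called the block.

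Libraries 2 were high in genes of the early response to stimulation and to tissue dissociation. All 19 tested members of that list were above both libraries 1 in both libraries 2, where 24.6% of all tested genes were, and 14 of the 19 cleared 1.5-fold. Jun, which encodes a subunit of the AP-1 transcription factor, was at 834 and 1710.5 CPM in the dorsal and 1003 and 2768 CPM in the ventral libraries, and Jund at 123 and 464 CPM in the dorsal and 156 and 681 CPM in the ventral libraries. Of 20 endoplasmic reticulum chaperone and unfolded protein response genes, 18 were above in both libraries 2. All 20 also had a ventral minus dorsal log2 fold change above 0 without the block (list median 0.10). Over all tested genes 8788 of 17690 did. The maturation factors Mafa and Nkx6-1 moved with the number too: Mafa was at 74.6 and 184 CPM in the dorsal and 92.5 and 211 CPM in the ventral libraries. Gm23935, a 57-base gene model annotated as a miRNA, was at 98.8 and 2559 CPM in the dorsal and 162 and 4173 CPM in the ventral libraries. Libraries 1 were instead high in 14 of 15 mesenchyme, 12 of 12 endothelial and 11 of 12 immune genes, where 26.7% of all tested genes were. The collagen gene Col1a1 was at 584 and 231 CPM in the dorsal and 898 and 353 CPM in the ventral libraries. A gene with both libraries of a number above both of the other cannot also be split in this way by side. The absence of such a split by side in the mesenchyme, endothelial and early-response lists therefore says little about the sides. Without the block, all 19 early-response genes had a ventral minus dorsal log2 fold change above 0 (list median 0.45). So did 11 of 12 endothelial and 10 of 15 mesenchyme genes, and these directions were not tested as sets.

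**Figure D1:**
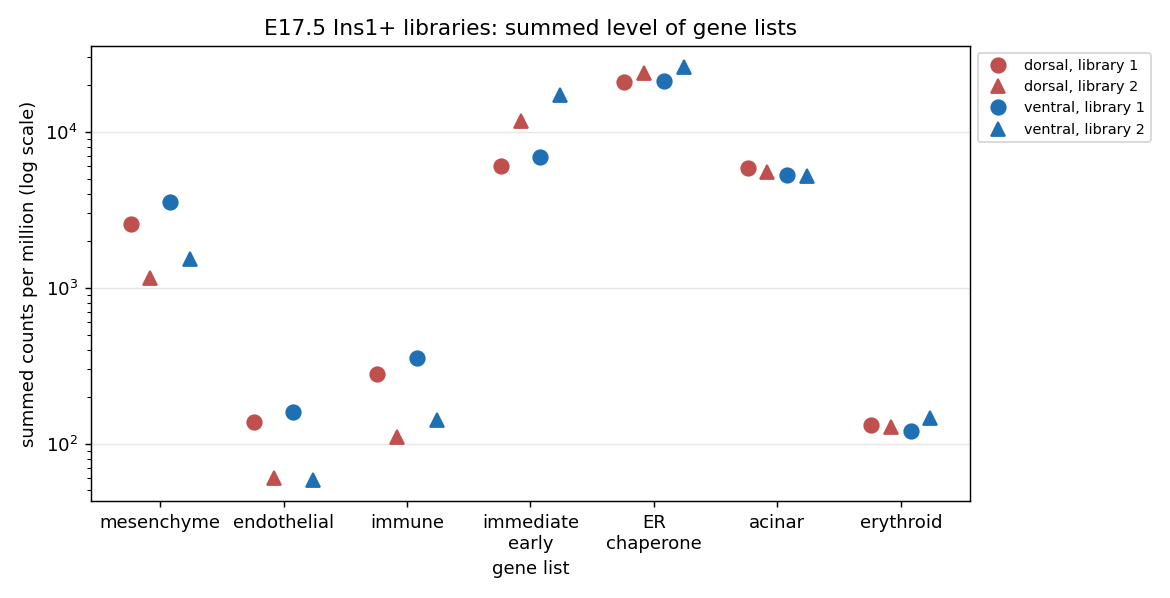
Summed level of 7 gene lists in the 4 E17.5 libraries, in CPM on a log axis; each point is 1 library, red for dorsal and blue for ventral, circles for library 1 and triangles for library 2. Mesenchyme, endothelial and immune sums are higher in both libraries 1 and early-response sums in both libraries 2, while acinar and erythroid sums lie close together.

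Few genes separated the sides. In the model without the block, 5 of 17690 genes (0.0283%) passed an adjusted p of 0.05 (quasi-likelihood F test of edgeR, adjusted by Benjamini and Hochberg over all of them): 4 were lower in ventral cells (0.0226%), the transcription factor genes Sim1, Irx1 and Irx2 and the imprinted gene Peg10, and 1 was higher (0.00565%), the hormone gene Gip. With the block 45 genes (0.254%) passed, 24 higher (0.136%) and 21 lower (0.119%), and the 5 were among them. On 1 set of simulated counts, drawn from the fit with the block, the model with the block made false calls at more than its nominal rate. The 40 genes that edgeR called only with it are therefore less certain than their adjusted p-values read. DESeq2, without the block, called 10, all among the 45. These were the 5 and Wnk3, Map3k15, Mamld1, St14 and Myh11. Leaving out dorsal library 2 left 3 calls (Sim1, Irx1 and Irx2), and a fit of the 4 E17.5 libraries alone without the block called none, with 251 genes at an unadjusted p under 0.05. Each fit without 1 library leaves its side with a lone library, which is assumed to vary like the other groups. In a bulk sample fewer cells of a type and less RNA per cell cannot be told apart, so none of these differences says whether every beta cell or a few cells of another kind differ.

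Sim1 encodes a basic helix-loop-helix PAS transcription factor best known from the hypothalamus. In GRCm38 it lies on chromosome 10 (50894754 to 50989152, plus strand). It was at 31.4 and 33.5 CPM in the dorsal and 1.93 and 3.96 CPM in the ventral libraries, and the sides did not overlap. The means were 2.94 ± 1.44 CPM (SD, n = 2) for the ventral and 32.5 ± 1.48 CPM (SD, n = 2) for the dorsal side, a log2 fold change of -3.52 with an SE of 0.30 and an adjusted p of 0.000113 without the block and -3.52 (SE 0.23, adjusted p = 1.53e-06) with it. The ventral values rest on 25 and 38 reads. The call held without each of the 4 libraries in turn, with log2 fold changes from -4.07 to -3.03, and was lost in the fit of the 4 libraries alone without the block (adjusted p = 0.547).

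Irx1 and Irx2 encode Iroquois homeodomain factors that are known from alpha cells in the islet. They are neighbours on chromosome 13, Irx1 at 71957921 to 71963723 on the minus strand and Irx2 at 72628820 to 72634198 on the plus strand. Irx2 was at 11.7 and 14.8 CPM in the dorsal and 2.77 and 2.40 CPM in the ventral libraries. Both ventral libraries were below both dorsal libraries, with a log2 fold change of -2.33 with an SE of 0.20 and an adjusted p of 0.000113 without the block and -2.32 (SE 0.20, adjusted p = 3.11e-05) with it. Irx1 was at 5.53 and 6.92 CPM in the dorsal and 0.770 and 1.46 CPM in the ventral libraries, again without overlap and with 10 and 14 reads in the ventral libraries. Its log2 fold change of -2.52 with an SE of 0.27 and an adjusted p of 0.00167 became -2.52 (SE 0.27, adjusted p = 0.000282) with the block, and it lost its call without ventral library 1 (adjusted p = 0.055). Of the other Iroquois genes, Irx3, Irx4 and Irx5 were tested and none passed in either model, and Irx6, with at most 1 read in a library, was not tested.

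Gcg, the glucagon gene, showed a large gap of the same direction as Irx1 and Irx2. Gcg lies on chromosome 2 (62474530 to 62483650, minus strand) and was at 847 and 1045 CPM in the dorsal and 175 and 162 CPM in the ventral libraries. The lowest dorsal library was thus far above the highest ventral one, and the dorsal mean was 5.61-fold the ventral mean in the fit. The test without the block did not pass, with a log2 fold change of -2.49 with an SE of 0.62 and an adjusted p of 0.998. In that test the spread of a gene is estimated over all 16 bulk libraries. Without the block the edgeR adjusted p moved with the setting, at like fold changes. It was 0.0898 in the 4 E17.5 libraries alone and 4.5e-103 with no filter on low counts, and DESeq2 gave 0.915. With the block Gcg fell by 2.48 on the log2 scale (SE 0.40, adjusted p = 0.0106).

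Of the alpha cell list, which holds Irx1, Irx2 and Gcg, no other gene passed. Of its 13 tested members, 2 passed as lower without the block (Irx1 and Irx2), 3 with it (Gcg added), none as higher, and 10, these 3 included, were below both dorsal libraries in both ventral ones, where 13.4% of all tested genes were. The list's median log2 fold change was -0.28 against 0 over all tested genes. Slc38a5, an amino acid transporter of alpha cells, was at 469.7 and 423 CPM in the dorsal and 331 and 315 CPM in the ventral libraries and Ttr, which encodes transthyretin, at 462 and 485 CPM in the dorsal and 429 and 417 CPM in the ventral libraries, and neither passed.

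Gip encodes the incretin hormone glucose-dependent insulinotropic polypeptide, which is made chiefly by K cells of the gut and raises insulin release. It lies on chromosome 11 (96024545 to 96030831, plus strand). It was at 38.3 and 41.8 CPM in the dorsal and 73.7 and 74.5 CPM in the ventral libraries, with the libraries of each side close together. The means of 74.1 ± 0.577 CPM (SD, n = 2) for the ventral and 40.0 ± 2.47 CPM (SD, n = 2) for the dorsal side gave a log2 fold change of 0.89 with an SE of 0.13 and an adjusted p of 0.0411, and 0.89 (SE 0.09, adjusted p = 0.000125) with the block. Without the block the call was lost when any 1 of the 4 libraries was left out, with adjusted p from 0.144 to 0.615.

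Sequence upstream of the start is shown for 3 of these genes, 2 that were lower and 1 that was higher in ventral cells, to set the promoters side by side. RefSeq's table matched Sim1 as well, but that entry lies inside the GENCODE span of the gene and is not shown. Irx1 and Peg10 had no entry. The windows are the 250 bases before the start in RefSeq's GRCm38.p6 annotation, read 5′ to 3′ on the gene's strand, and touch no exon of GENCODE vM21. Irx2 is at chr13:72628570-72628819 on the plus strand, Gcg at chr2:62483654-62483903 on the minus strand and Gip at chr11:96024295-96024544 on the plus strand. Capitals mark the letters TATAAA (the TATA box), GGGCGG (the GC box), CCAAT (the CCAAT box) and CAGATG (an E-box), each searched on both strands, and no matches overlapped.
Irx2: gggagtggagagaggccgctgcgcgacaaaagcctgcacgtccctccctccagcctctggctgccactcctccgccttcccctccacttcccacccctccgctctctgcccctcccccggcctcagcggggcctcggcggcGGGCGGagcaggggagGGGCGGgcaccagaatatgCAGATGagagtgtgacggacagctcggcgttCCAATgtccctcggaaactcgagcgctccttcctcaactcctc
Gcg: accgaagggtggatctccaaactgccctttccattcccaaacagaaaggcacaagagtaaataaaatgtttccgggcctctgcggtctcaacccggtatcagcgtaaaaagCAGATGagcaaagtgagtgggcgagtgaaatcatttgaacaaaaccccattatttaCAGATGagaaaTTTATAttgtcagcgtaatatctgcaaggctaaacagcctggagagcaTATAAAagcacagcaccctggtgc
Gip: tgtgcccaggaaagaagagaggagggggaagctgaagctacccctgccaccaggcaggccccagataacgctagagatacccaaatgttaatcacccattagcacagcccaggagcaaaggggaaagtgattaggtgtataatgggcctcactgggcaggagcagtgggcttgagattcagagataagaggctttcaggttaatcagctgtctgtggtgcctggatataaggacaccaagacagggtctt

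The Irx2 window held 19 CpG, 2 GC boxes, 1 CCAAT box and 1 E-box, and no TATA box. The Gcg window held 7 CpG and, on the gene's strand, a TATA box that begins 24 bases before the start. It held a further TATAAA match on the other strand and 2 E-boxes, which begin 139 and 83 bases before the start. The Gip window held 1 CpG and none of the 4 letter strings. The median over 32851 promoter windows of this length was 6 CpG, and 12.4% of them held TATAAA, 32.7% GGGCGG, 33.8% CCAAT and 14.4% CAGATG. A match is a description of the letters and not a site.

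Of the delta and PP cell hormones, somatostatin rose in ventral cells in the model with the block and pancreatic polypeptide passed in neither. Sst was at 425 and 959 CPM in the dorsal and 910.1 and 1370.4 CPM in the ventral libraries. The highest dorsal value lay above the lowest ventral one, because library 2 exceeded library 1 on both sides, and within each number the ventral library was higher. Sst did not pass without the block (adjusted p = 1) and rose with it, by 0.81 on the log2 scale (SE 0.11, adjusted p = 0.00278). Ppy, the pancreatic polypeptide gene, was at 66.9 and 83.2 CPM in the dorsal and 121 and 113 CPM in the ventral libraries, without overlap, and missed the threshold in both models (log2 fold change 0.64, adjusted p = 1 without and 0.0588 with the block). Peptide YY (Pyy) was at 444 and 571 CPM in the dorsal and 672 and 636 CPM in the ventral libraries and ghrelin (Ghrl) at 32.2 and 55.8 CPM in the dorsal and 51.6 and 56.5 CPM in the ventral libraries, and neither passed. Of 14 tested hormone genes, 1 passed as higher without the block (0.00565% of all tested genes did), and 2 as higher and 1 as lower with it (0.136% and 0.119%). Of the 11 delta, PP and epsilon cell genes, Sst alone passed, with the block. Hhex, a transcription factor of delta cells, was at 12.9 and 22.3 CPM in the dorsal and 18.4 and 26.3 CPM in the ventral libraries (adjusted p = 0.385 with the block).

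**Figure D2:**
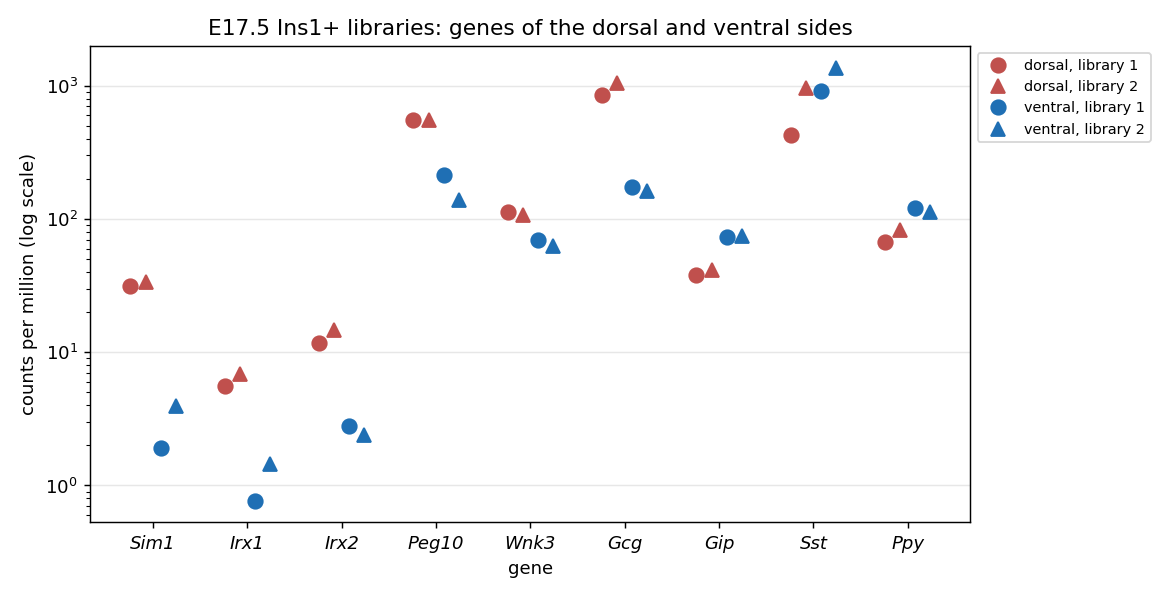
Level of 9 genes in each E17.5 library, in CPM on a log axis; each point is 1 library, red for dorsal and blue for ventral, circles for library 1 and triangles for library 2. The sides do not overlap for 8 of the 9 genes, and Sst overlaps because its values also differ by library number.

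Peg10, an imprinted gene derived from a retrotransposon and expressed from the paternal allele, had the highest dorsal level per length of the genes called without the block. It lies on chromosome 6 (4747306 to 4760517, plus strand) and was at 551 and 554 CPM in the dorsal and 214 and 138 CPM in the ventral libraries. The dorsal libraries were nearly alike and the ventral libraries both lower, with a log2 fold change of -1.65 with an SE of 0.25 and an adjusted p of 0.044 and -1.68 (SE 0.21, adjusted p = 0.00122) with the block. Without the block it stayed past the threshold only when ventral library 1 was left out, and missed it without each of the other libraries (adjusted p up to 0.254). Of 20 imprinted genes it was the only one to pass. Sgce, its neighbour in the same imprinted cluster, was at 8.02 and 6.49 CPM in the dorsal and 9.01 and 4.90 CPM in the ventral libraries, and the growth genes Igf2 (482 and 245 against 567 and 246 CPM, dorsal against ventral) and H19 (638 and 317 against 719 and 327 CPM) followed the library number.

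In the main edgeR model Wnk3, Map3k15 and Insrr passed only with the block. Each was less than 2-fold lower in ventral cells, with both ventral libraries below both dorsal ones. DESeq2 without the block also called Wnk3 and Map3k15, and a robust edgeR fit without it called Wnk3. Wnk3, on the X chromosome, encodes a kinase that regulates cation-chloride cotransport. It was at 114 and 107 CPM in the dorsal and 70.0 and 63.3 CPM in the ventral libraries, and missed the threshold without the block (adjusted p = 0.0584) but fell with it, by 0.73 on the log2 scale (adjusted p = 0.000383). Of 11 ion channel and WNK pathway genes no other passed. Map3k15, a stress kinase gene also on the X chromosome, was at 210.0 and 192 CPM in the dorsal and 129.9 and 113 CPM in the ventral libraries (adjusted p = 0.182 without and 0.000621 with the block). Insrr, which encodes an insulin receptor-related kinase, was at 325 and 272 CPM in the dorsal and 221 and 197 CPM in the ventral libraries, and fell with the block (adjusted p = 0.00278).

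With the block the fall also took in Gad1, the gene of the enzyme that makes GABA, at 105 and 129 CPM in the dorsal and 68.4 and 89.7 CPM in the ventral libraries, and Aldh5a1, whose product breaks GABA down further, at 158 and 125 CPM in the dorsal and 124 and 107 CPM in the ventral libraries. Mamld1 (51.1 and 47.8 against 32.9 and 34.4 CPM, dorsal against ventral), the membrane protease gene St14 (46.0 and 46.9 against 33.2 and 33.8 CPM), Mast2 (103 and 88.3 against 79.7 and 67.4 CPM), the potassium channel gene Kcnh6 (127 and 111 against 97.1 and 88.6 CPM) and Fgd6 (112 and 110.1 against 82.2 and 87.8 CPM) fell too, each with both ventral libraries below both dorsal ones. Mamld1, like Wnk3 and Map3k15, lies on the X chromosome. The share of tested genes on that chromosome was not counted, and a difference by chromosome was not tested. The remaining genes that fell with the block were Tmem179, Nxph1, Hmcn1, Neat1, Otub2 and the non-coding Gm14617. Of these, Tmem179 (5.29 and 4.00 against 1.31 and 1.88 CPM) and Nxph1 (1.52 and 2.81 against 0.308 and 0.521 CPM) were low in every library.

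The genes that rose with the block included 2 groups whose difference was unequal in the libraries 1 and 2. The first was contractile genes of smooth muscle: Acta2, Myh11, Actg2, Cnn1, Tagln, Myl9 and Mylk, grouped after their values were seen. Myh11, the smooth muscle myosin heavy chain, was at 3.61 and 3.79 CPM in the dorsal and 40.9 and 10.7 CPM in the ventral libraries, and rose by 2.68 on the log2 scale (SE 0.35, adjusted p = 0.00232) with the block. Acta2, smooth muscle actin, was at 10.9 and 5.41 CPM in the dorsal and 43.2 and 10.8 CPM in the ventral libraries (adjusted p = 0.00191 with the block). Ventral library 1 was the highest for all 7. Further muscle genes looked at in the same way, Des, Lmod1 and Synpo2, did not pass. The mesenchyme sum was also highest in ventral library 1, and the part of such cells in these differences was not tested.

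The second group, also formed after the values were seen, was Arc, Egr2, Ier2, Junb, Dnajb1, Rhob and Cited2, each highest in ventral library 2. Arc and Egr2 are known as early-response genes but are not in the early-response list. Arc was at 64.4 and 129 CPM in the dorsal and 92.4 and 329 CPM in the ventral libraries, Egr2 at 6.42 and 12.9 CPM in the dorsal and 9.86 and 38.8 CPM in the ventral libraries and the heat shock cochaperone gene Dnajb1 at 106 and 276 CPM in the dorsal and 132 and 472 CPM in the ventral libraries, and all 3 rose with the block (adjusted p = 0.0063, 0.00819 and 0.00315). Ier2 and Junb, the 2 of 19 members of that list that passed, did so with adjusted p = 0.0191 and 0.0361. None of these 5 passed without the block. The summed early-response list was at 6027 and 11653 CPM in the dorsal and 6923 and 17211 CPM in the ventral libraries, and its part in these differences was not tested.

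In the model with the block, leaving out 1 library also removes its partner of the same number from the comparison, so that 1 dorsal and 1 ventral library are compared. The spread then comes from the other bulk groups, and both libraries are assumed to vary like those. The number 1 pair alone gave 13 genes, of which 12 were among the 45, and the number 2 pair alone gave 14 genes, of which 11 were among the 45. Sim1, Irx1, Irx2, Gip and Wnk3 were called in both, which describes these libraries and is no test of replication. Acta2, Myh11, Actg2, Cnn1, Tagln, Myl9 and Sst were called in the number 1 pair and not in the number 2 pair. Arc, Egr2, Dnajb1, Rhob, Map3k15 and Peg10 were called in the number 2 pair and not in the number 1 pair, and the difference between the pairs was not tested.

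**Figure D3:**
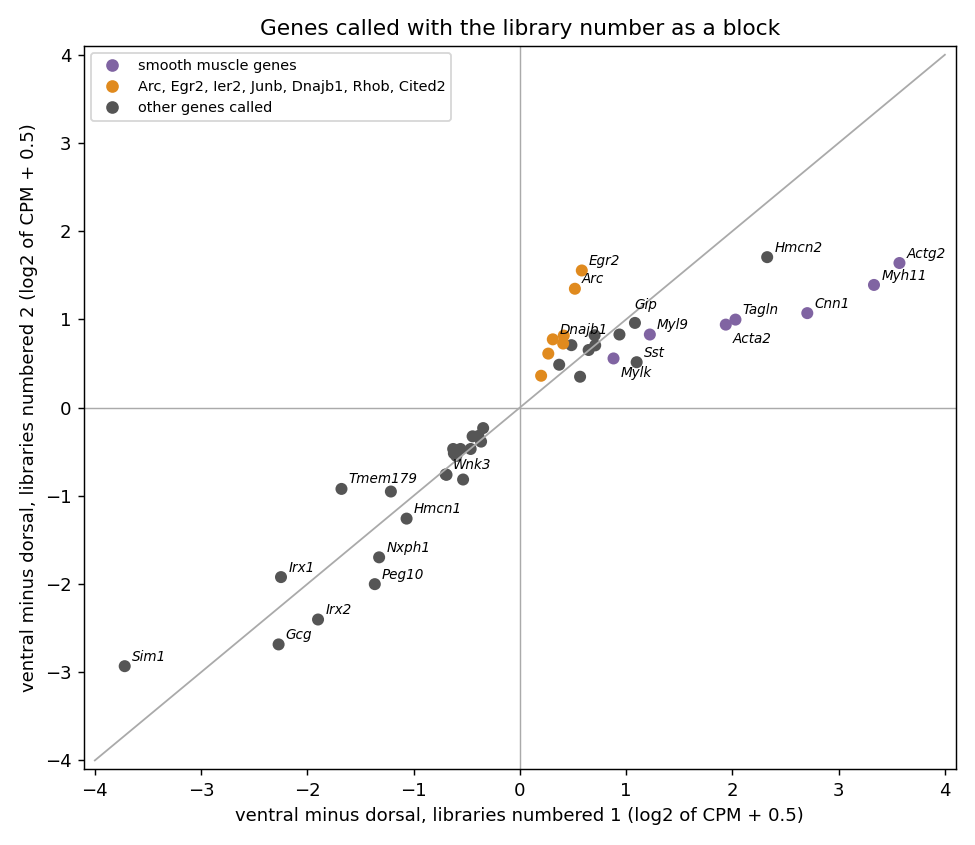
Ventral minus dorsal difference of the 45 genes called with the block, in libraries numbered 1 (x axis) and 2 (y axis), as log2 of CPM plus 0.5; each point is 1 gene and the diagonal marks equal differences. Sim1, Irx1, Irx2 and Gcg lie far below 0 in both pairs, smooth muscle genes (purple) lie below the diagonal and the 7 genes of the group led by Arc and Egr2 (orange) above it.

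Car8, Tcf24 and Wfikkn2 rose with the block without overlap of the sides. Car8, which encodes a carbonic anhydrase-related protein, was at 15.3 and 17.8 CPM in the dorsal and 25.3 and 31.9 CPM in the ventral libraries (adjusted p = 0.00295). Tcf24, a helix-loop-helix factor gene, was at 1.84 and 2.70 CPM in the dorsal and 4.47 and 5.73 CPM in the ventral libraries, and Wfikkn2, which encodes a protease inhibitor domain protein that binds growth factors of the TGF beta family, was at 110.2 and 128 CPM in the dorsal and 143 and 180.0 CPM in the ventral libraries. Hmcn2 (0.321 and 0.325 against 3.62 and 2.19 CPM, dorsal against ventral) and the matrix protease gene Mmp14 (46.3 and 33.1 against 68.8 and 42.3 CPM) rose as well, Mmp14 with overlap of the sides, as did Cited2, Rhob and 3 short gene models, Gm23935, Gm24187 and Gm24270.

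The genes of beta cell identity and function did not pass in either model. Ins1 was at 24166 and 29052 CPM in the dorsal and 25871 and 31331 CPM in the ventral libraries and Ins2 at 43580.2 and 50258 CPM in the dorsal and 45386 and 54028 CPM in the ventral libraries, and on both sides library 2 was higher than library 1. For Ins1 the log2 fold change was 0.10 (SE 0.20), or 0.10 (SE 0.10) with the block. None of the 20 beta cell transcription factors, 16 maturation genes, 25 secretory granule and exocytosis genes or 25 glucose-sensing and incretin response genes passed. Pdx1, the beta cell and pancreas master factor, was at 519 and 537 CPM in the dorsal and 564 and 579.8 CPM in the ventral libraries, higher in both ventral libraries, with a log2 fold change of 0.12 (SE 0.07) with the block. It was the only one of the 20 transcription factors above both dorsal libraries in both ventral ones (12.2% of all tested genes were), and 7 were below both (13.4% were), among them Pax6 (578 and 585 against 525 and 541 CPM, dorsal against ventral) and Neurod1 (272 and 278 against 246 and 266 CPM).

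Nkx6-1, a factor that keeps beta cell identity, was at 287 and 569 CPM in the dorsal and 311 and 616 CPM in the ventral libraries, so that the libraries of the same number lay together. The glucose transporter gene Slc2a2 was at 732 and 771 CPM in the dorsal and 731 and 767 CPM in the ventral libraries. Ucn3, a late maturation marker, was at 30.9 and 40.9 CPM in the dorsal and 37.4 and 48.6 CPM in the ventral libraries. The median log2 fold changes of the transcription factor, maturation, granule and glucose-sensing lists were 0.00079, -0.02, 0.06 and -0.00707. With 2 libraries a side a p that misses the threshold is no evidence of equal levels.

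**Figure D4:**
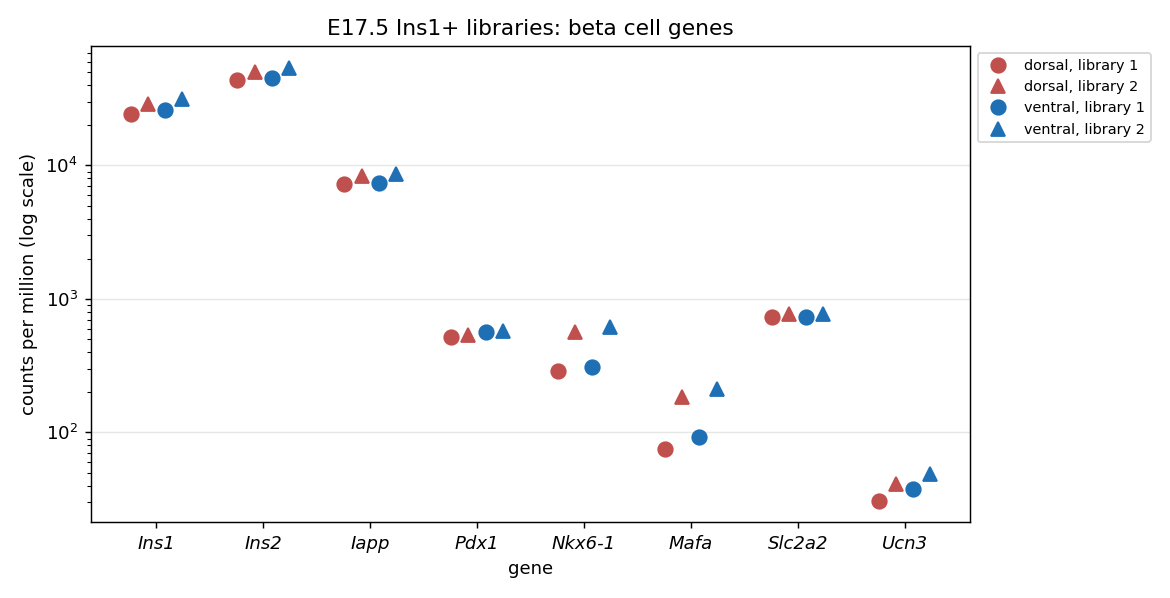
Level of 8 beta cell genes in each E17.5 library, in CPM on a log axis; each point is 1 library, red for dorsal and blue for ventral, circles for library 1 and triangles for library 2. Dorsal and ventral libraries of the same number lie close together, and Nkx6-1 and Mafa differ mainly between the numbers.

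Pathways and other lists gave few calls. None of 24 BMP and TGF beta, 25 Wnt, 17 Notch, 24 guidance and adhesion, 16 S phase or 16 G2M genes passed in either model. Of the G2M genes 7 were lower in both ventral libraries than in both dorsal ones and none was higher, where 13.4% and 12.2% of all tested genes were, with a list median of -0.12. Of 23 acinar genes 9 were lower and 2 higher in both ventral libraries than in both dorsal ones, against the same shares, none past the threshold. Of 30 side and regional patterning factors Sim1 alone passed. None of the 18 endocrine progenitor, 14 pancreatic progenitor, 14 ductal, 10 erythroid, 14 hepatoblast, 12 neuron and Schwann cell, 17 glycolysis and hypoxia or 5 sex-linked genes passed in either model, nor did any of the acinar, endothelial, immune or chaperone lists. Of the mesenchyme list Acta2 alone passed, with the block. Prph, which encodes the neuronal filament protein peripherin, was at 0.882 and 0.216 CPM in the dorsal and 3.47 and 2.81 CPM in the ventral libraries and did not pass.

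Some of the side differences were present in earlier cells of the series. In E14.5 Ngn3-H cells, which are endocrine progenitors, Sim1 was at 115 ± 1.58 and 1.82 ± 1.09 CPM (dorsal and ventral means ± SD, n = 2), Irx2 at 133 ± 2.67 and 29.6 ± 1.10 CPM and Irx1 at 78.4 ± 3.28 and 14.2 ± 1.88 CPM. The ventral minus dorsal log2 fold changes there were -5.93, -2.17 and -2.47. The dorsal means of all 3 were lower at E17.5 than at E14.5, a comparison not tested here, and the fold between the sides was of like size for Irx1 and Irx2. Gip stood at 50.7 and 65.2 CPM there and Peg10 at 7041 and 2968 CPM.

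The change in the difference between the sides from E14.5 Ngn3-H to E17.5 cells was tested directly. Without the block 2 of 17690 genes (0.0113%) passed, the digestive enzyme genes Pnliprp1 and Ctrb1, and 61 (0.345%) passed with it, 52 upward (0.294%) and 9 downward (0.0509%). Without the block neither gene passed when ventral library 1 or dorsal library 2 of E17.5, or either dorsal E14.5 library, was left out, and 1 passed without dorsal library 1 or ventral library 2 of E17.5. Pnliprp1, a pancreatic lipase-related protein gene, was at 1691 and 1492 CPM in the dorsal and 1585 and 1491 CPM in the ventral libraries at E17.5, and at 30.5 CPM in dorsal and 8.25 CPM in ventral E14.5 cells, where the sides differed (log2 fold change -1.87, adjusted p = 0.000151). The difference moved by 1.82 on the log2 scale (SE 0.23, adjusted p = 0.0247). For Sim1 it moved by 2.41 (SE 0.46), toward a smaller difference, with adjusted p = 0.21 without and 0.0175 with the block. For Irx1 and Irx2 it moved by -0.05 and -0.17, which did not pass. Stage and reporter change together in this test and cannot be told apart.

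**Figure D5:**
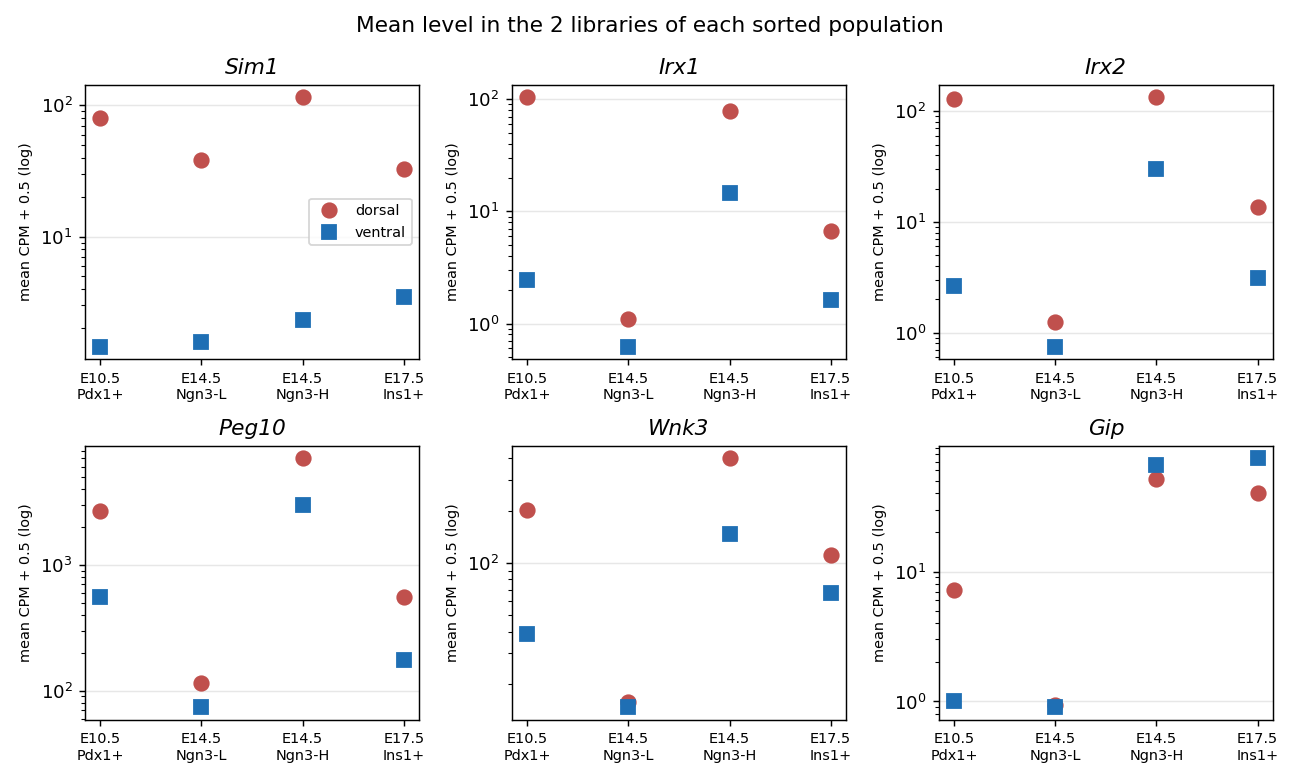
Mean level of 6 genes in the 2 dorsal (red circles) and 2 ventral (blue squares) libraries of each sorted bulk population, as CPM plus 0.5 on a log axis; the populations are E10.5 Pdx1+, E14.5 Ngn3-L, E14.5 Ngn3-H and E17.5 Ins1+. Sim1 is higher in dorsal cells in all 4 populations, and Gip is higher in ventral cells at E17.5 and higher in dorsal cells at E10.5.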

How the data were processed

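Per the labels' protocols, poly(A) RNA of sorted cells was made into strand-specific libraries. Per the submitters' processing notes, TopHat2 2.1.0, Bowtie2 and HTSeq 0.6.0 were used with GRCm38. The deposited values are whole-number read counts for 40824 genes. The 92 ERCC rows were left out. The members and lists were chosen with earlier results of these data known. Annotation and strand setting: not given in the sources used here.

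Counts were filtered by group and TMM-scaled, and 17690 genes in all 16 bulk libraries (8 groups) were fitted in edgeR 4.0.16 (R 4.3.3) with quasi-likelihood F tests and Benjamini-Hochberg adjustment at 0.05. The block is 1 term per stage for library number 2. Standard errors are the log2 fold change over the root of F. Genes were named by a fixed set of 16, up to 10 per direction called with non-overlapping sides and an average log2 CPM of 1 or more, up to 4 per list (31 lists) and up to 5 per direction for the difference between stages, leaving out unnamed, ribosomal and mitochondrial gene models. Some genes of this rule are not reported here. Genes named beyond this were chosen after their values were seen. Alternatives were RLE scaling, DESeq2 1.42.0, no low-count filter, a 1.5-fold test, fewer libraries, a robust fit and each library left out. The method was tested on 1 set of simulated counts, with means and spreads taken from the fit with the block. There the fit without the block made no false call and the fit with it made more than its nominal rate. Coordinates are GENCODE vM21, matched by identifier for 17541 tested genes.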

Additional observations from a re-analysis of the deposited data

Results flagged for a closer look

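The difference between ventral and dorsal cells differed between E17.5 Ins1+ and E14.5 Ngn3-H cells, by the test of that difference, for Pnliprp1 (1.82 on the log2 scale) and Ctrb1 (1.88, SE 0.26, adjusted p = 0.0399). Ctrb1 was at 34.7 CPM in dorsal and 8.39 CPM in ventral E14.5 Ngn3-H cells and at 1832 and 1668 CPM at E17.5.

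Rows of ERCC spike-in RNA, which the comparisons leave out, held 8 and 56 reads in the dorsal E17.5 libraries 1 and 2 and 7 and 64 reads in the ventral ones. All were above the cut of 3 reads set for this flag. The other 12 bulk libraries held 0 or 1 such read. The spike-in reads, too, were higher in libraries 2 than in libraries 1.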

How the results depend on the processing

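The count of 5 genes was 5 with RLE scaling and with a robust fit, which called Wnk3 in place of Peg10. It was 10 with DESeq2, 94 with no filter on low counts (27819 genes tested), 3 against a 1.5-fold change, and 3 to 6 with 1 of the 4 libraries left out. With only the 4 E17.5 libraries it was 0 in edgeR (251 genes at an unadjusted p under 0.05). With the replicate block it was 45 over all libraries and 689 in the 4 E17.5 libraries alone, a fit with 1 residual degree of freedom. The same block gave 45 genes with RLE scaling and 13 to 14 without 1 library. Deviations of same-numbered E17.5 libraries correlated at 0.604 over 17690 genes, and at 0.213 to 0.385 in the other bulk groups, but 2 pairs and unlabelled numbers do not show that the samples were paired.

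The count of 2 genes for the difference between stages was 2 with RLE scaling, 30 with DESeq2, 123 with no filter on low counts, 0 against a 1.5-fold change, 61 with the replicate block, 7 with a robust fit, 0 with only the 8 libraries of these groups, and 0 to 2 without 1 library. It was 0 without ventral library 1 or dorsal library 2 of E17.5, and without either dorsal E14.5 library. The cause of these changes was not tested.

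Sim1 and Irx2 were called in 13 of 14 settings, all but the 4 libraries without a number term. Log2 fold changes that turned sign with 1 library left out ran over -0.0474 to 0.25 for Ins1, -0.0545 to 0.21 for Ins2, -0.0866 to 0.15 for Iapp, -0.47 to 0.70 for Nkx6-1, -0.49 to 1.02 for Mafa, -0.0191 to 1.40 for Mylk, -0.54 to 1.51 for Dnajb1, -0.0648 to 1.78 for Arc, -0.26 to 1.30 for Ier2, -0.42 to 1.55 for Junb, -0.0475 to 0.75 for Ghrl, -0.0102 to 0.78 for Hhex and -0.0464 to 0.0374 for Slc2a2. None of these passed without the block in the main model.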

Other observations

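Short RNAs and long genes also differed by library number. Rn7sk, the 7SK RNA gene, was at 120.2 and 340.1 CPM in the dorsal and 106 and 320.1 CPM in the ventral libraries. Among the 10088 genes with a mean of 10 CPM or more, the median log2 difference of library 2 from library 1 was 0.094 in dorsal and 0.083 in ventral cells for the shortest 25% of genes, and -0.062 and -0.035 for the longest 25%. The activity-dependent gene Npas4 was at 16.8 and 52.6 CPM in the dorsal and 17.1 and 95.7 CPM in the ventral libraries and C2cd4b, a gene near a diabetes risk locus, at 84.0 and 249 CPM in the dorsal and 100.1 and 284 CPM in the ventral libraries. These genes were chosen after their values were seen. Amy2a5, an amylase gene not tested in the main model, had 3 and 476 reads in the dorsal and 5 and 6 in the ventral libraries.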
